A study of Homo sapiens with 6 samples.

Results

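The genes that license replication origins and carry cells into S phase were followed in U87MG cells, an established human glioblastoma line, through 9 members: ORC1, CDC6, CDT1, MCM4, MCM10, E2F1, E2F7, CDC25A and CCNA2. They were picked by gene name in the deposited table and make up 9 of its 1630 rows. Total RNA was sequenced in 2 groups of 3 libraries. One group carried a control short hairpin RNA (shControl, genotype given as NC) and the other a hairpin against CREPT (shCREPT, genotype given as a knockdown); no drug, time or clone is named. CREPT is the product of RPRD1B, a protein that attaches to the tail of the largest subunit of RNA polymerase II, and the series title links it to proliferation in glioblastoma.

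Origins are licensed in late mitosis and G1, when the origin recognition complex, CDC6 and CDT1 load the MCM helicase onto DNA in an inactive form. At the start of S phase, kinases and a set of firing factors that includes MCM10 turn the loaded helicase on, and further loading is blocked so that each stretch of DNA is copied once. Most of these genes are transcribed in a wave at the G1/S boundary under E2F transcription factors, which the retinoblastoma protein holds in check until cyclin-dependent kinases release them.

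The table lists only rows that the authors marked as significant for shCREPT against shControl. The smallest absolute log2 fold change in the authors' deposited table is 1.0009 and the largest adjusted p-value 0.0497. A difference between the groups was therefore the condition for having a row, and the tests below describe its size and spread in these libraries. Values are the authors' normalized expression values, a linear signal of unknown depth, which summed over all listed rows to 31894 to 33331 per library. Levels of different genes are not compared, because it is not stated whether the values are scaled by gene length. RPRD1B has no row, so the knockdown itself was not checked. Whether the 3 libraries of a group are separate cultures is not stated, and p-values therefore measure only a library-to-library spread that may be technical.

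All 9 genes were higher in shCREPT than in shControl cells, by 2.01-fold (ORC1) to 3.02-fold (CDC25A) as ratios of group means. The 9 genes act in origin recognition, helicase loading, the helicase itself, its activation, E2F control and the activation of cyclin-dependent kinases. In each of the 9 genes the lowest shCREPT library lay above the highest shControl library, by at least 1.83-fold. With limma on log2(value + 1) and Benjamini-Hochberg adjustment over 1184 tested rows, 9 of 9 passed an adjusted p of 0.05 as higher and 0 as lower. Over all tested rows 40.6% were called higher, 97.9% were called in either direction, and 40.2% had every shCREPT library above every shControl library. These shares come from a table selected on the same contrast, and the genes were chosen with their direction known, so the count of 9 is a description.

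The promoters of these genes were read to see whether they hold the letters of the E2F motif. RefSeq windows (GRCh38.p14) of 250 bases before to 50 bases after the gene start were at hand for 8 of the 9 genes; MCM4 had no entry. The letters searched, on both strands, were TTTCCCG or TTTCGCG or TTTGCCG or TTTGGCG, the first bases of the E2F consensus, and these were chosen with the sequences in view. Matches were present in 5 of the 8 windows (62.5%), those of CDC6, CDT1, MCM10, E2F1 and CDC25A. Of 35116 windows of the same length in the RefSeq set, 8.67% held a match, as did 10.4% of the 22199 windows of protein-coding genes and 12.9% of 542 windows of the other genes that the authors marked up; some genes have several windows. All 10 matches in the 5 genes began between positions −44 and 17 from the RefSeq gene start, counted with the first base of the RefSeq gene as 1. Gene starts differ between annotations. GENCODE starts CDT1 at 88803213 and CDC6 at 40287633, upstream of the RefSeq starts, so the matches of these 2 genes lie inside the GENCODE genes. E2F1 also starts upstream in GENCODE, at 33686404, and its match at −20 runs across that start. The 62.5% may have been raised by choosing the letters with the sequences in view, so the shares are a description and were not tested. A match is a description of letters, and binding was not measured. The 5 sequences are shown 5′ to 3′ on the strand of the gene, with the matching letters in capitals.
CDC6, chr17:40287629-40287928, plus strand: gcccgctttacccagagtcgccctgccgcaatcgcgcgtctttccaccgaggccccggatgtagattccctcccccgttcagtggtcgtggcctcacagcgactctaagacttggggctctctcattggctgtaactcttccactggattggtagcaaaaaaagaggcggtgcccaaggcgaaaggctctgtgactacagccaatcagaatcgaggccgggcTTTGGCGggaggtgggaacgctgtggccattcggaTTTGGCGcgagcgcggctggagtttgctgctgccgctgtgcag
E2F1, chr20:33686336-33686635, minus strand: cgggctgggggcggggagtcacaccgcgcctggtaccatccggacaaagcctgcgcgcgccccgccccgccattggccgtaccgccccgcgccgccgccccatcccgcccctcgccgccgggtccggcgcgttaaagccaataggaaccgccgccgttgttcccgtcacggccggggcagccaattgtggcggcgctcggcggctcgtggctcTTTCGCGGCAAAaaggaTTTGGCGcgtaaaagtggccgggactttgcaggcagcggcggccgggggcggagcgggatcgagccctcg
CDT1, chr16:88803725-88803798, plus strand: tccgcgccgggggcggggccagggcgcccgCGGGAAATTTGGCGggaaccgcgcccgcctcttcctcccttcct
MCM10, chr10:13161533-13161599, plus strand: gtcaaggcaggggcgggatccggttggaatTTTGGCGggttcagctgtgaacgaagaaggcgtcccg
CDC25A, chr3:48188368-48188491, minus strand: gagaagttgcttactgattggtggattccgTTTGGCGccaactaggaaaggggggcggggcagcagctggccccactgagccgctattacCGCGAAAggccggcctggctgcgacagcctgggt

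CDC6 and E2F1 are shown over the whole window because 5 of the 10 matches are theirs; the other 3 are cut to the matches and 30 bases on either side, or to the end of the window. In E2F1 the 2 matches at positions −37 and −32 overlap on opposite strands and a further match begins at −20. In CDT1 matches on opposite strands abut at −34 and −27. The letters TTTGGCG occurred in all 5 sequences. CDC6 held them at −28 and 8, and CDC25A held them at −44 beside a match of the other type at 17.

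The windows of ORC1, E2F7 and CCNA2 held none of the E2F-type letters, which says only that these letters are not in these windows. All 3 held CCAAT or its reverse complement ATTGG, as did 7 of the 8 windows (87.5%); CDT1 did not. The letters CCAAT were in 34.6% of all windows, in 34.7% of the windows of protein-coding genes and in 35.1% of those of the other genes the authors marked up. The CCAAT shares are likewise a description and were not tested. In ORC1 the letters ATTGG are followed by cg, and ATTGGCG differs from the searched TTTGGCG in its first base alone. The share of windows with such a near match was not taken, so it is not counted as a match. The stretch around the CCAAT letters nearest the start is shown for these 3 genes, with the letters in capitals, for comparison with the 5 above.
ORC1, chr1:52404402-52404486, minus strand: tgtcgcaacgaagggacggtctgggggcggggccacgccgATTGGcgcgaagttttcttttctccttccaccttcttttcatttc
E2F7, chr12:77065579-77065663, minus strand: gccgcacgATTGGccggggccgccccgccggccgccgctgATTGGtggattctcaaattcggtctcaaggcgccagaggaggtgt
CCNA2, chr4:121823895-121823979, minus strand: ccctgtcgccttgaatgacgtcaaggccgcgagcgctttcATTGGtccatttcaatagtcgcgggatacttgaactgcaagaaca

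**Figure D1:**
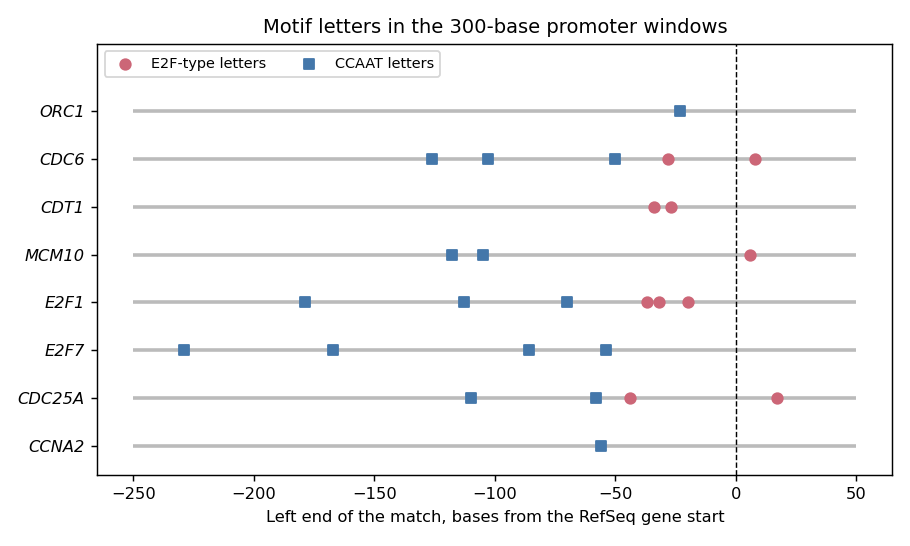
Left ends of E2F-type letters (circles) and of CCAAT letters (squares) along the promoter windows of 8 genes, in bases from the RefSeq gene start (dashed line). The 10 E2F-type matches of CDC6, CDT1, MCM10, E2F1 and CDC25A lie between −44 and 17.

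The proteins that mark and load origins come first in the pathway. ORC1 (ENSG00000085840) is the largest subunit of the origin recognition complex. It read 9.71, 9.45 and 10.15 in the shControl libraries and 19.33, 19.49 and 20.02 in the shCREPT libraries. The groups lay far apart relative to their spread, with 9.77 ± 0.354 against 19.6 ± 0.361 (SD, n = 3), and the 2.01-fold ratio was the smallest of the 9. Its log2 change was 0.94 ± 0.07 (SE; limma adjusted p = 3.39e-05).

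CDC6 (ENSG00000094804) is the ATPase that joins the origin recognition complex to recruit the helicase. Its values were 18.03, 19.14 and 20.18 in shControl and 41.3, 45.71 and 46.8 in shCREPT. The lowest shCREPT library stood 2.05-fold above the highest control, and the means were 19.1 ± 1.08 and 44.6 ± 2.91 (SD, n = 3; 2.33-fold). The log2 change was 1.18 ± 0.09 (SE; limma adjusted p = 2.85e-05).

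CDT1 (ENSG00000167513) brings the MCM helicase to the loading site and is destroyed once S phase begins. It read 14.42, 16.5 and 18.3 in shControl and 43.48, 34.11 and 33.53 in shCREPT. The first shCREPT library stood above the other 2, and the coefficient of variation of 15.1% in shCREPT was the largest among the 9 genes in that group. The means were 16.4 ± 1.94 and 37.0 ± 5.58 (SD, n = 3; 2.26-fold, or 2.06-fold without that library). By limma the log2 change was 1.12 with an SE of 0.14 and an adjusted p of 0.000228, the highest of the 9.

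The helicase and its activator showed rises near 3-fold in the deposited values. MCM4 (ENSG00000104738) is a subunit of the ring-shaped MCM helicase that unwinds DNA at the fork. It read 76.86, 79.47 and 110.65 in shControl and 271.19, 257.35 and 269.45 in shCREPT. The third shControl library stood above the other 2, so the control group varied by 21.1% (coefficient of variation) against 2.83% in shCREPT. The means were 89.0 ± 18.8 and 266.0 ± 7.54 (SD, n = 3), a 2.99-fold ratio that became 3.40-fold without that library. Its log2 change was 1.59 ± 0.15 (SE; limma adjusted p = 6.61e-05), the largest of the 9.

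MCM10 (ENSG00000065328) is a factor that binds the helicase at the moment it is switched on and is not part of the MCM ring. Its values were 6.44, 5.58 and 5.98 in shControl and 16.79, 16.96 and 17.48 in shCREPT. The shCREPT libraries were closely grouped and all lay at least 2.61-fold above the highest control. The means were 6 ± 0.430 and 17.1 ± 0.359 (SD, n = 3; 2.85-fold), and the log2 change was 1.37 ± 0.08 (SE; limma adjusted p = 1.36e-05).

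The E2F factors in the table included an activator and a repressor. E2F1 (ENSG00000101412) activates S-phase genes once released from the retinoblastoma protein. It read 13.32, 12.49 and 12.63 in shControl and 27.73, 26.24 and 26.96 in shCREPT, with no library standing apart in either group. The ratio of means was 2.11-fold and the log2 change 1.02 ± 0.08 (SE; limma adjusted p = 2.58e-05).

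E2F7 (ENSG00000165891) is an atypical E2F that represses E2F target genes, E2F1 among them, later in S phase. It read 8.15, 7.91 and 8.34 in shControl and 17.45, 18.59 and 17.28 in shCREPT. E2F7 rose from 8.13 ± 0.215 to 17.8 ± 0.712 (SD, n = 3; 2.19-fold). Its log2 change was 1.04 ± 0.08 (SE; limma adjusted p = 2.49e-05). The ratio of E2F7 to E2F1 within a library changed by 0.05 on the log2 scale, and the groups overlapped.

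Kinase activation was represented by a phosphatase and a cyclin. CDC25A (ENSG00000164045) removes inhibitory phosphates from cyclin-dependent kinases and so promotes entry into S phase. Its values were 7.85, 7.63 and 7.6 in shControl and 22.82, 24.88 and 21.99 in shCREPT. The controls varied by 1.77% alone, and the means of 7.69 ± 0.137 and 23.2 ± 1.49 (SD, n = 3) gave the largest ratio of the 9, 3.02-fold. The log2 change was 1.48 ± 0.08 (SE; limma adjusted p = 1.11e-05).

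CCNA2 (ENSG00000145386) encodes cyclin A2, the cyclin that partners CDK2 in S phase and CDK1 afterwards. It read 36.27, 39.28 and 39.91 in shControl and 75.62, 79.65 and 78.17 in shCREPT. The groups were separated by at least 1.89-fold, and the means were 38.5 ± 1.95 and 77.8 ± 2.04 (SD, n = 3; 2.02-fold). The log2 change was 0.998 ± 0.08 (SE; limma adjusted p = 3.42e-05).

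**Figure D2:**
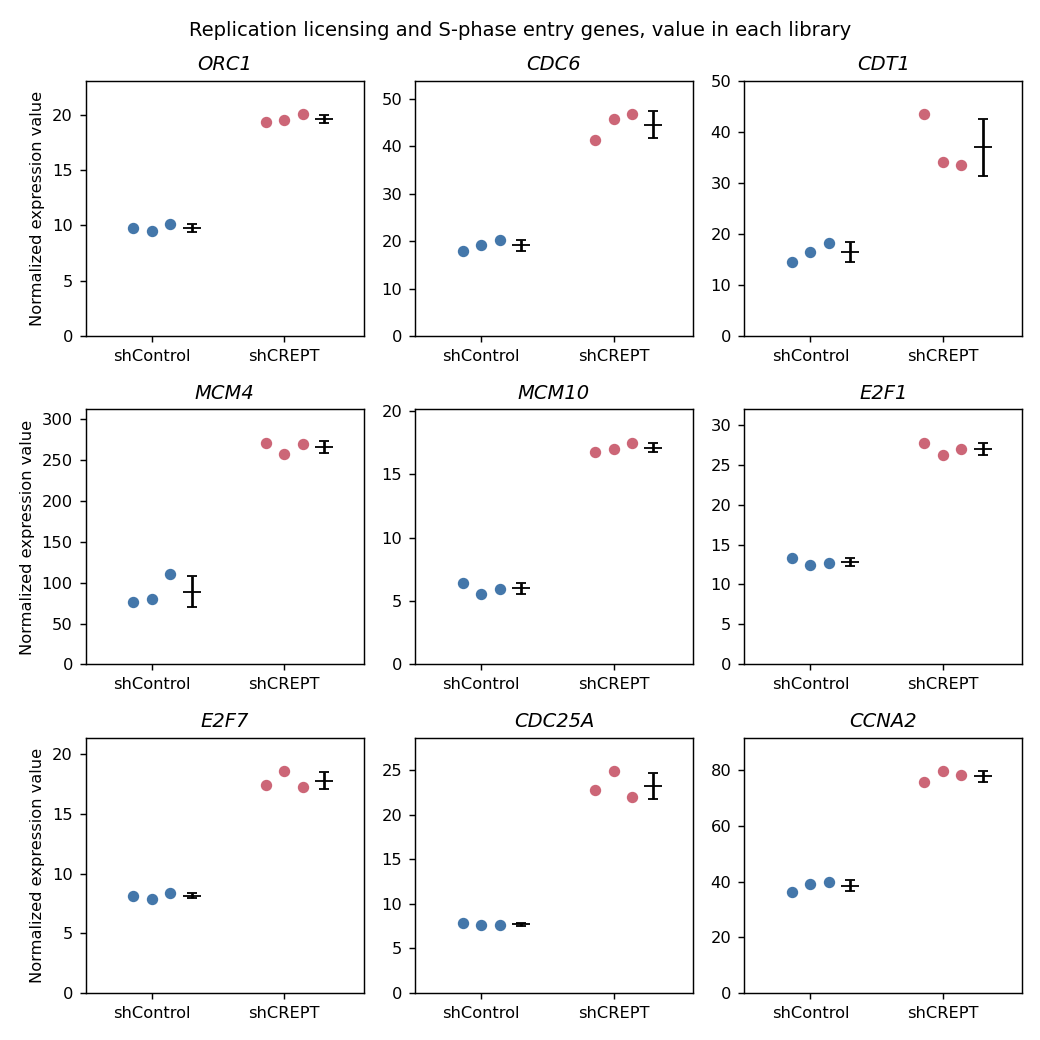
Normalized expression value of each gene in each library (points; shControl left, shCREPT right), with the mean and SD of 3 libraries beside them; every vertical axis starts at 0. In all 9 panels the shCREPT points lie above the shControl points, and the third shControl library of MCM4 and the first shCREPT library of CDT1 stand apart from their groups.

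The median log2 change over the 9 genes was 1.12, beside −0.76 over all 1184 tested rows and 1.11 over the 481 rows called higher. Compared with those 481 rows, whose interquartile range ran from 0.92 to 1.39, 7 of the 9 genes lay inside that range and MCM4 and CDC25A above it. The size of the rise was therefore close to that of a typical risen row of this table. The filter on low values removed none of the 9, since the lowest value of any of them in any library was 5.58.

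Within the set the ratios fell into 3 genes at 2.85 to 3.02-fold (MCM4, CDC25A and MCM10) and 6 at 2.01 to 2.33-fold. For a closer description the genes were ordered by their limma log2 change, in which MCM4 comes first and CDC25A second. The log2 ratio of the 2 genes in each of the 8 neighbouring pairs of that order was then taken within each library, which does not depend on how libraries are scaled. In 7 pairs the groups overlapped. The pair on either side of the gap, MCM10 and CDC6, did not overlap: the log2 ratio of MCM10 to CDC6 went from −1.67 ± 0.16 to −1.38 ± 0.07 (SD, n = 3), a difference of 0.29 that turned to −0.034 with a pseudocount of 5. The order came from the same values and an exact permutation test of 3 against 3 libraries cannot go below 0.1, so all pairs are given as descriptions, with no test. Between the ends of the limma order the log2 ratio of MCM4 to ORC1 was higher by 0.59 in shCREPT without overlap. This pair was picked as the extremes of the same values. The folds of MCM4 and ORC1 in the authors' deposited table lie closer together, at 2.29 and 2.03.

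**Figure D3:**
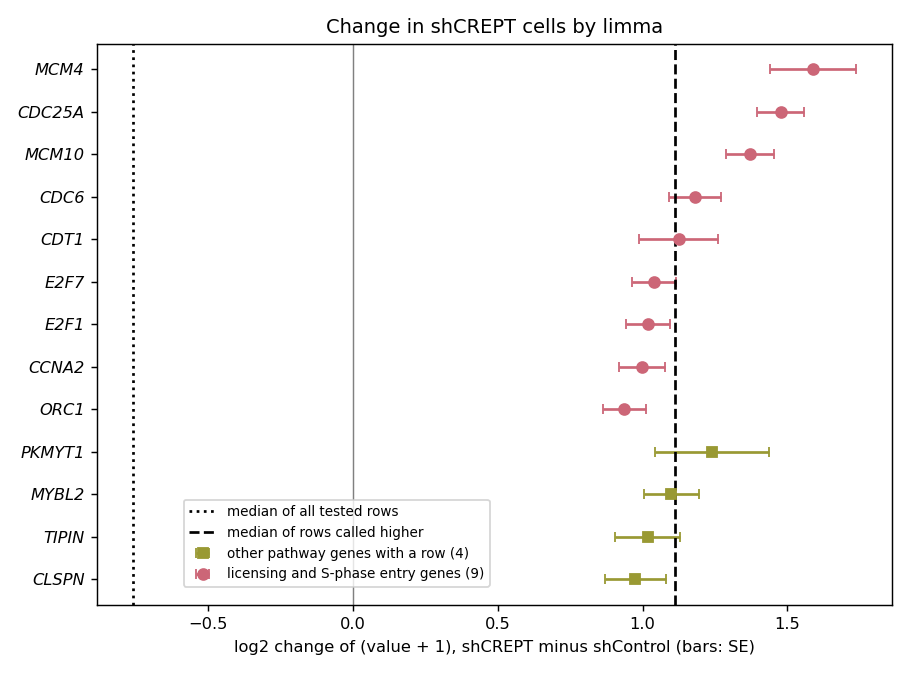
Change in log2(value + 1) from shControl to shCREPT with its SE by limma, for the 9 genes (circles) and 4 further genes of the pathway lists (squares); the dotted line is the median of all tested rows (−0.76) and the dashed line that of rows called higher (1.11). All 13 genes lie between 0.94 and 1.59.

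The place of MCM4 in that order depended on which deposited value was read. In the authors' deposited table the fold change of MCM4 is 2.29, against a ratio of 2.99 between the means of its deposited values. Even the lowest shCREPT library over the highest shControl library gave 2.33. MCM4 was the 1 gene of the 9 whose fold in the authors' deposited table lay outside the range of its library ratios, as did 64 of 716 rows with a group mean above 5 and no control at 0. On the log2 scale its difference was 0.38, the 35th largest of 721 rows with a group mean above 5. The next largest among the 9 was that of CDC6 (0.16; 2.33-fold by the means and 2.09 in the authors' deposited table). By the folds in the authors' deposited table CDC25A (2.90) and MCM10 (2.86) stand apart, and the other 7 lie from 2.03 (ORC1) to 2.29 (MCM4). Of those, ORC1, CCNA2 (2.05) and CDC6 are nearest to the 2-fold limit for having a row.

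**Figure D4:**
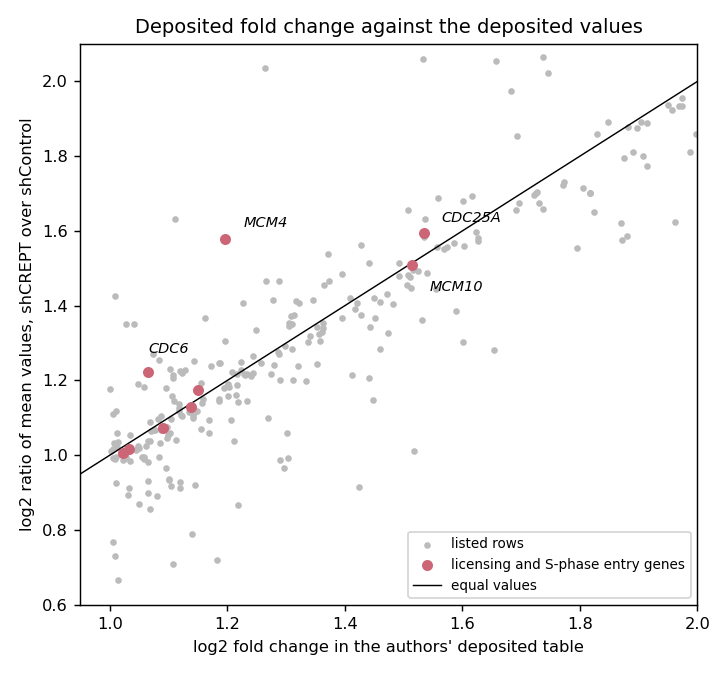
Log2 ratio of the mean deposited values against the log2 fold change in the authors' deposited table, for rows with a group mean above 5, shown from just below 1 to 2 on the horizontal axis; the line marks equal values. MCM4 lies 0.38 above the line and CDC6 0.16 above it, while the other 7 genes (red) lie on or near it.

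The rise was of similar size in each shCREPT library. The median over the 9 genes of the log2 value, relative to the shControl mean, was 1.07, 1.10 and 1.02 in the 3 shCREPT libraries and −0.01, −0.03 and 0.05 in the 3 shControl libraries. Each shCREPT library was the highest of its group for 3 of the 9 genes. Among controls the third library was the highest for 6 genes, the first for 3 and the second for 0.

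The genes lie on 9 different chromosomes (GENCODE release 29, GRCh38), so none neighbours another. ORC1 spans 52372829 to 52404459 on chromosome 1, CDC25A 48157146 to 48188402 on chromosome 3, and CCNA2 121816444 to 121823933 on chromosome 4. MCM4 spans 47960185 to 47978160 on chromosome 8, where the gene PRKDC starts 2 bases away on the opposite strand. MCM10 lies at 13161554 to 13211104 on chromosome 10, E2F7 at 77021247 to 77065580 on chromosome 12 and CDT1 at 88803213 to 88809258 on chromosome 16. CDC6 lies at 40287633 to 40304657 on chromosome 17 and E2F1 at 33675683 to 33686404 on chromosome 20. CCNA2 shares 578 bases with EXOSC9 on the opposite strand, and CDC25A holds 3 pseudogenes or small RNA genes on the opposite strand. The labels do not say whether reads kept their strand, so reads in those stretches may not have been told apart. None of the nearest protein-coding neighbours, including PRKDC, EXOSC9 and APRT (81 bases from CDT1), has a row.

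The wider pathway was read through 9 lists with 132 genes in all, of which 13 have a row and 119 do not. Of the 13, 9 are the genes described above, chosen with their direction known, and 4 are further genes. All 13 were called higher and 0 lower (median log2 change 1.10), in a table where 40.6% of tested rows were called higher and 97.9% in either direction. Origin licensing had 4 of 16 genes with a row, helicase activation and origin firing 3 of 17, the E2F and pocket protein axis 3 of 19, cyclins with their kinases and phosphatases 2 of 14, and the S-phase checkpoint 1 of 12. The lists for replicative DNA synthesis (24 genes), deoxynucleotide supply (9), CDK inhibitors (8) and ubiquitin ligases of S-phase entry (13) had 0 rows. A gene without a row may have changed by less than the authors' limit, so the other MCM subunits, the CDT1 inhibitor geminin, cyclin E and p21 were not analysed here.

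The 4 further genes act beside the 9. TIPIN, which with its partner TIMELESS steadies the replication fork, read 16.35, 18.86 and 15.28 in shControl and 37.72, 35.67 and 31.8 in shCREPT (2.08-fold; log2 change 1.02 ± 0.11 SE, limma adjusted p = 0.000134). CLSPN encodes claspin, the adaptor through which a stalled fork activates the checkpoint kinase CHEK1. It read 9.78, 10.18 and 12.02 in shControl and 23.25, 22.09 and 20.29 in shCREPT (2.05-fold; log2 change 0.98 ± 0.11 SE, limma adjusted p = 0.000125). MYBL2 encodes B-MYB, which works with the MuvB complex to drive late cell cycle genes. It read 44.86, 47.98 and 51.38 in shControl and 109.29, 107.47 and 95.63 in shCREPT (2.17-fold; log2 change 1.10 ± 0.10 SE, limma adjusted p = 4.56e-05).

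PKMYT1 is a kinase that places inhibitory phosphates on CDK1, the kind of mark that CDC25 phosphatases remove. It read 21.21, 14.04 and 21.71 in shControl and 54.11, 44.01 and 39.22 in shCREPT (2.41-fold; log2 change 1.24 ± 0.20 SE, limma adjusted p = 0.000824). The second control stood below the other 2, and the groups did not overlap. CDC25A and PKMYT1, which act in opposite directions on these kinases, were thus both higher.

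The 5 other rows nearest to the median pattern of the 9 genes were sought among 1028 tested rows with a standard symbol. Likeness was the root mean square difference over the 6 libraries in log2(value + 1) relative to the shControl mean. The nearest were TMEM11 (0.035), the HLA class I gene HLA-C (0.035), the mucin MUC16 (0.043), the mRNA export factor ALYREF (0.046) and the spindle positioning gene MISP (0.049). Among the 9 genes themselves the distance ran from 0.026 (E2F7) to 0.40 (MCM4). On this scale these 5 rows therefore lay nearer the median pattern than 8 of the 9 did. As ratios of means the 5 rows rose from 2.14-fold (HLA-C) to 2.73-fold (MISP), beside a median of 2.26 over the 9 genes. MISP had means of only 1.75 in shControl and 4.76 in shCREPT, and log2(value + 1) understates changes of such low rows.

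Other features of the libraries moved with the groups. The mitochondrial ribosomal RNA MT-RNR1 made up 9.35 to 10.5% of the sum over listed rows in the shControl libraries and 18.6 to 20.9% in the shCREPT libraries. Of 10 glioma and astrocyte markers the 3 with a row (GFAP, S100B and SLC1A3) summed to 498 to 528 in shControl and 72.5 to 88.9 in shCREPT, and the other 7 have no row, so the labelled cell type could be checked no further. In shControl GFAP made up most of that sum (421 to 448) and S100B read 2.27 to 3.12. Of 5 endothelial markers 2 have a row (43.3 to 45.3 against 11.6 to 13.7), as do 2 of 6 fibroblast markers (1085 to 1099 against 432 to 492). The fibroblast sum was almost all COL1A2, since COL3A1 read at most 0.39 in any library. Among 8 microglial and 7 T cell markers 0 have a row, which does not show that they were not expressed. The lower marker sums stand in a table where the authors marked 973 of 1630 rows down. The part of these features in the rise of the 9 genes was not tested. In bulk RNA a larger share of cells in S phase and more transcript per cell cannot be told apart.

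Of the rows called by limma, 41.5% were higher with the values as deposited, 57% under median-of-ratios rescaling and 43.5% under quantile normalization. The median-of-ratios rescaling raises every shCREPT value by 0.89 on the log2 scale against shControl. Both rescalings were computed on the tested rows alone, which were all selected as changed. Their values show how far the result moves with scaling and are not better estimates of the rise. The 9 genes were higher under each of these scalings, from 0.94 to 1.59 on the log2 scale as deposited, from 1.16 (ORC1) to 1.67 (MCM4) after quantile normalization and from 1.76 (ORC1) to 2.47 (MCM4) after median-of-ratios rescaling. The median log2 change of all tested rows was −0.76, −0.52 and −0.12 in the same 3 settings, and each gene lay at least 1.68 above it. That median is no baseline of unchanged genes, since every row was selected as changed and the authors marked 973 of 1630 down. A distance of this kind follows from the selection for any row listed as higher.

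**Figure D5:**
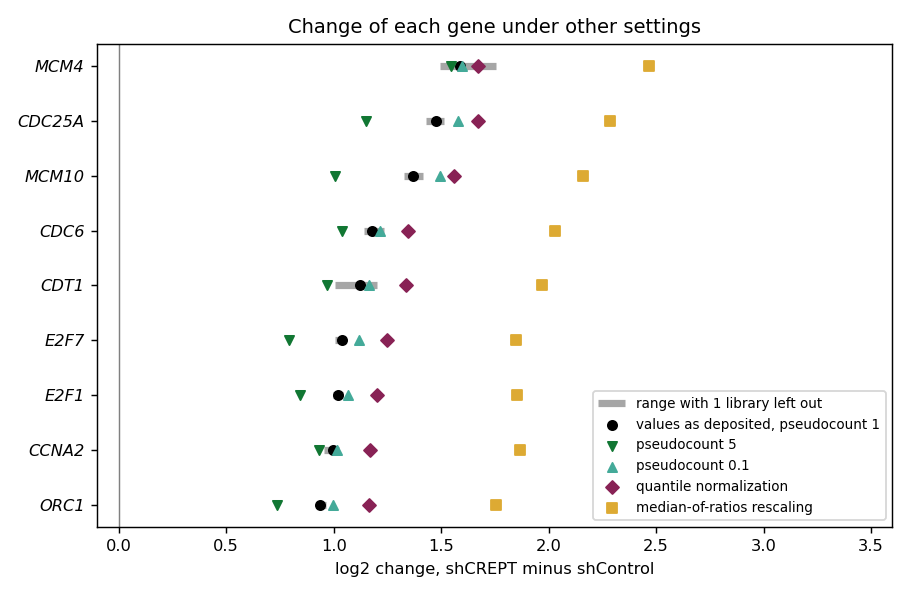
Log2 change of each of the 9 genes with the values as deposited (black circles), 2 other pseudocounts, 2 other scalings, and the range when 1 library is left out (grey bars). All points lie above 0, the lowest at 0.74 (ORC1, pseudocount of 5) and the highest at 2.47 (MCM4, median-of-ratios rescaling).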

How the data were processed

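RNA of 3 shControl and 3 shCREPT libraries of U87MG cells was prepared with a column kit and NEBNext Ultra reagents, per the labels' protocols. HISAT2, HTSeq and GRCh38 are named in the submitters' processing notes, with no version or role. The deposited table holds a normalized signal per library, normalized by the authors in a way not given in the sources used here. Per the file headers it also has the authors' fold (a ratio), the log2 of that fold, and p-values before and after adjustment. It lists significant rows alone. The 9 members, the pathway and marker lists and the tests were chosen with earlier results of these data known. Values were taken as log2(value + 1). Rows reaching 1 in 3 or more libraries (1184 of 1630) were kept and tested with limma 3.58.1 in R 4.3.3 (no covariate, no trend, threshold 0.05). Changes of low rows are understated on this scale, and ratios of means stand beside them. The rule for named genes was the 9 members, up to 4 further listed genes per pathway list, and the 5 rows nearest in pattern. Depth is unknown and no count test was run. Any 2 libraries differed in at least 96.0% of rows, so no column of values is a copy of another. A second library of the same culture would not be detected this way. The limma step was also run on simulated data, and the outcome is not given here. Promoters came from RefSeq (GRCh38.p14) and coordinates from GENCODE release 29, where 1549 identifiers matched. Python 3.11.15, numpy 2.4.6, pandas 2.3.3, scipy 1.17.1, statsmodels 0.14.6 and matplotlib 3.10.9 were used.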

Additional observations from a re-analysis of the deposited data

How the results depend on the processing

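All 9 genes kept their direction and their call under 14 alternatives (126 values): the replicate block, a trended and robust limma fit, quantile normalization, median-of-ratios rescaling, pseudocounts of 0.1 and 5, a low-value minimum of 10 or none, and each of the 6 libraries left out in turn. Every row was listed because it differed between the groups in these same 6 libraries. Keeping a call was therefore largely fixed in advance and is a description. In the main fit 97.9% of all tested rows were called in either direction. The log2 changes of the 9 genes ran from 0.74 to 2.47 and the highest limma adjusted p was 0.00220. The 2.47 came from median-of-ratios rescaling, which was computed on the selected rows alone. MCM4 ran from 1.49 to 1.75 and CDT1 from 1.01 to 1.20 when 1 library was left out. Rows called were 481 higher and 678 lower; a minimum of 10 left 487 rows to test and called 214 higher and 271 lower, and median-of-ratios rescaling called 492 higher and 371 lower. The replicate block called 479 higher and 677 lower. Same-numbered libraries gave correlations of −0.109, 0.018 and −0.179 across rows in their deviations from the group means, so the numbers were not taken as pairs. Of the differences in response between the 8 neighbouring pairs, that of CDC25A and MCM10 kept its sign throughout (0.026 to 0.146). With a pseudocount of 5, 3 turned sign, to −0.034 for MCM10 and CDC6, −0.050 for E2F7 and E2F1 and −0.086 for E2F1 and CCNA2, since that pseudocount shrinks low genes by construction. Leaving out 1 library left MCM10 and CDC6 at 0.237 to 0.383, E2F7 and E2F1 at 0.00052 to 0.086 and E2F1 and CCNA2 at 0.017 to 0.128, and turned the sign of 4 others, which ran from −0.103 to 0.183 for MCM4 and CDC25A, −0.052 to 0.226 for CDC6 and CDT1, −0.090 to 0.131 for CDT1 and E2F7 and −0.027 to 0.050 for CCNA2 and ORC1. Depth is unknown and sets no bound. The count tests were not run for want of counts.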
